A study of Mus musculus with 15 samples.

Results

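An ordered trend was fitted across 5 groups of mouse bone marrow libraries that run from wild type to leukemia. The cells were sorted as LSK, the lineage-negative, Sca1-positive and cKit-positive fraction that holds blood stem cells and early progenitors. Each group had 3 libraries: WT, Tet2-/-, Nras(G12D), Tet2-/- Nras(G12D) without leukemia (called the double mutant), and Tet2-/- Nras(G12D) with leukemia (called the leukemic double mutant). All mice were C57BL/6. Per the design text the mutations are conditional and restricted to blood-forming tissue, and it gives 6 months as the age of mice used for methylome work. The Cre driver is not given in the sources used here. The leukemic group alone carries the mark BMT, whose meaning was not established here and which cannot be told apart from leukemia. WT was scored 0, both single mutants 1, the double mutant 2 and the leukemic double mutant 3, so all 15 libraries of the series entered the trend. The score orders groups of separate libraries and is not a time course. Of 44827 genes in the authors' table, 13927 with a log2 value of at least 0, which is 1 CPM (counts per 1000000 counts of the scaled library), in at least 3 libraries were tested.

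Tet2 is a dioxygenase that oxidises 5-methylcytosine and so takes part in DNA demethylation, and its loss is known to favour the expansion of blood stem and progenitor cells. Nras is a small GTPase that passes receptor signals to the RAF, MEK and ERK kinases, and the G12D change holds it in its active form. Both genes are recurrently mutated in human myeloid neoplasms, where mutations are thought to accumulate in stem and progenitor cells before overt leukemia.

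The slope of a gene is its change in log2 value per stage, given with its standard error, and an adjusted p below 0.05 was called. Of the genes tested, 948 rose with the stage (6.81%) and 1121 fell (8.05%). Together 14.9% were called, with 4560 genes at an unadjusted p below 0.05. The median slope of all genes tested was 0.0047 per stage. Called slopes ran from -2.87 to 2.29. When the libraries were scaled by total counts instead, 674 genes rose and 1745 fell. Whether the 3 libraries of a group stem from different mice is not stated. Every group but WT held libraries both with and without expression of Y-linked genes, so those 3 libraries were not all from the same mouse. Between WT libraries, and between libraries of a group that are alike in Y-linked expression, the spread may be technical. The p-values speak for these libraries only. They measure the spread around the fitted line, which also holds departures of the group means from that line. With the spread taken within the 5 groups instead, 2195 genes rose and 2189 fell.

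Total counts ran from 22733189 to 43562909 per library. The LSK markers Kit and Ly6a (which encodes Sca1) were present in all libraries, with Kit at 374.6 to 673 CPM in the leukemic libraries and 434 to 2910 CPM in the others. Y-linked genes were expressed in 5 libraries: Tet2-/- 1 and 2, Nras(G12D) 2, double mutant 1 and leukemic 1, and in no WT library. Among the 10 libraries without Y-linked expression 766 genes rose (5.5%) and 801 fell (5.75%). With Y-linked expression as a covariate the counts were 1349 (9.69%) and 1650 (11.8%). On the first principal component, with 42.0% of the variance, leukemic libraries 2 and 3 lay at 146.6 and 113.6 and leukemic library 1 at 51.6. The other 12 libraries lay between -105.2 and 22.6.

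Most calls needed the leukemic libraries, and libraries 2 and 3 above all. Without the leukemic group, 4 genes rose (0.0287%) and 2 fell (0.0144%) over WT, the single mutants and the double mutant, with 1518 at an unadjusted p below 0.05. The 4 rises were Tjp1, Atf3, Fosb and Fzd1, and the 2 falls were Ighv1-80 and Bcat1. Of these, Tjp1, Atf3 and Ighv1-80 were also called with all libraries. Leaving out leukemic library 2 alone left 16 rises (0.115%) and 62 falls (0.445%). Leaving out leukemic library 3 left 8 rises (0.0574%) and 49 falls (0.352%). At an unadjusted p below 0.05 these fits held 3092 and 3282 genes. Without the whole leukemic group 918 of the 948 rises and 1016 of the 1121 falls had slopes in the same direction. The remaining libraries had also entered the calls, so much of this agreement was set in advance. The same share over all genes tested was not taken. Without leukemic libraries 2 and 3 together 1 gene rose, Tjp1, and 1 fell, Igf2r. Leaving out WT library 1 gave 516 rises. No other single library moved either count by more than 1.5 times. Called in each of the 15 fits that leave out 1 library were 7 rises (Atf3, E130215H24Rik, Emilin2, Gab2, Pmaip1, Tjp1 and Zfp821) and 40 falls.

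**Figure D1:**
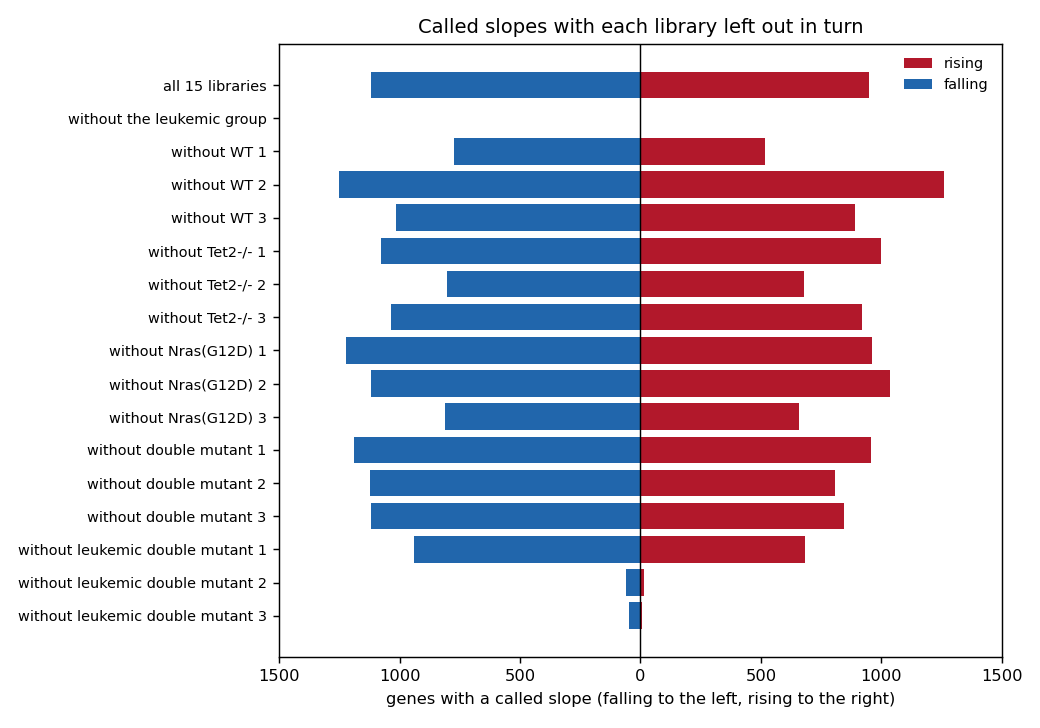
Number of genes with a called slope (x axis: falling genes to the left, rising genes to the right) with all 15 libraries, without the leukemic group and with each library left out in turn (y axis). The bars shorten to 16 and 62 genes without leukemic library 2 and to 8 and 49 without leukemic library 3.

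The rises and the falls had different shapes over the stages. Steps between neighbouring stages were read from the stage means on the log2 scale, from the same values that gave the calls, so they are a description. Among the 948 rises the largest step was from the single mutants to the double mutant in 662 (69.8%), against 47.9% of the 7078 tested genes with a positive slope. The single-mutant mean pools 2 unlike groups. Over the rises the median difference of the double mutant was 1.87 from Tet2-/- and 0.68 from Nras(G12D). The median difference between the leukemic double mutant and the double mutant was 0.62. Among the 1121 falls it was from the double mutant to the leukemic double mutant in 967 (86.3%), against 63.4% of the 6849 tested genes with a negative slope. The step from WT to the single mutants was the largest in 12 of the rises (1.27%) and in 35 of the falls (3.12%). Over the tested genes with a positive or a negative slope the shares were 7.22% and 8.23%. The last step held a median of 35.5% of the difference between WT and leukemic means among the rises and 78.7% among the falls.

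A strict order of all 4 stage means was less common than a called slope. It was found in 251 of the 948 rises (26.5%, against 3.24% of all genes tested) and in 421 of the 1121 falls (37.6%, against 5.86%). The 3 leukemic libraries lay above all 12 others in 238 of the 948 rises, against 5.47% of all genes tested. They lay below all 12 others in 647 of the 1121 falls, against 7.79% of all genes tested. These counts among called genes were favoured in advance, since the same values gave the calls. The shares over all genes tested also hold genes with a slope in the opposite direction, so the contrast is a description. For 1 tested gene, E130215H24Rik, a gene model without an assigned function, no library of a stage overlapped with a library of the next (0.00718%). E130215H24Rik measured 0.648, 1.02 and 0.732 CPM in WT libraries, 1.1, 1.09 and 1.05 in those of Tet2-/-, 1.66, 1.5 and 1.15 in those of Nras(G12D), 1.69, 1.81 and 1.97 in double mutants and 5.39, 8 and 3.74 in leukemic double mutants. Its slope was 0.89 ± 0.13 per stage (adjusted p = 0.00527), and it is named here after its values were seen. Among falling genes the count was 0 (0%).

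The single mutants, which share the score of 1, stood on opposite sides of WT for most rising genes. The median difference from WT over the 948 rises was -0.66 in Tet2-/-, 0.48 in Nras(G12D), 1.16 in the double mutant and 1.82 in the leukemic double mutant. The Tet2-/- mean was below WT in 822 of them (86.7%, against 50.2% of all genes tested) and the Nras(G12D) mean in 74 (7.81%, against 52.5%). Over the 1121 falls the medians were 0.22, -0.25, -0.36 and -1.92 in the same order. There the Tet2-/- mean was below WT in 394 genes (35.1%) and the Nras(G12D) mean in 860 (76.7%).

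**Figure D2:**
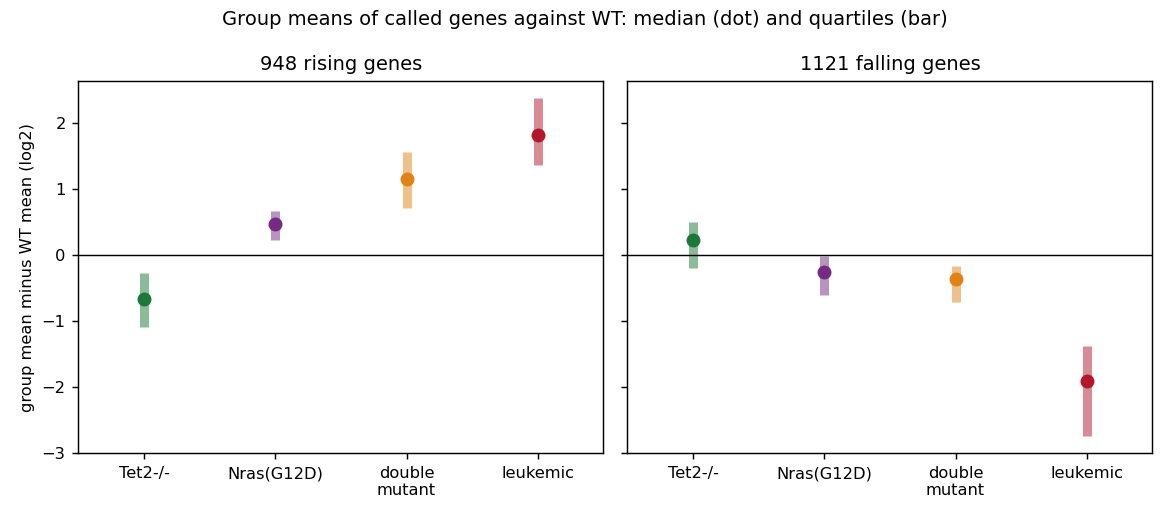
Difference of each group mean from the WT mean (y axis, log2) for the 948 rising genes (left) and the 1121 falling genes (right), with groups in stage order on the x axis; dots are medians over genes and bars run from the lower to the upper quartile. For the rising genes the Tet2-/- median lies at -0.66, below WT, and for the falling genes the leukemic double mutant alone lies far from WT, at -1.92.

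The departure of the 5 group means from a straight line was tested with an F test on 3 degrees of freedom. It was called for 3378 genes (24.3%), among them 450 of the rises and 345 of the falls. This count too depended on single libraries. Leaving out WT 1, 2 or 3 gave 2078, 145 or 125 departures, and leaving out Tet2-/- 1 or 3 gave 280 or 160. There were 146 and 130 without double mutant 2 and 3, and 6597 and 1128 without leukemic 1 and 3. The 5 genes called in both tests with the smallest departure p were Mt1, Epor, Ccnl2, Zc2hc1a and Trim5. Mt1, a metallothionein that binds zinc and copper, measured 19.6, 26.6 and 17.8 CPM in WT libraries, 19, 8.3 and 12.7 in those of Tet2-/-, 29.2, 17.5 and 14.8 in those of Nras(G12D), 15.6, 15.2 and 15.6 in double mutants and 113, 448 and 319 in leukemic double mutants. The leukemic libraries lay far above WT in Mt1 and the double mutant just below it, and the slope was 1.12 ± 0.29 per stage (adjusted p = 0.025) with all libraries and -0.22 without the leukemic group. Ccnl2, a cyclin linked to RNA splicing, measured 77.2, 147 and 125 CPM in WT libraries, 35.3, 70.3 and 42.3 in those of Tet2-/-, 110.02, 81.1 and 80.8 in those of Nras(G12D), 172, 264 and 285 in double mutants and 293, 238 and 228 in leukemic double mutants. The Tet2-/- values of Ccnl2 lay below all the others, and the double mutant and leukemic values overlapped.

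Libraries of the same group differed along the rising genes. Leukemic library 1 was below leukemic libraries 2 and 3 in 736 of the 948 rises (77.6%, against 42.7% of all genes tested). It was above both in 830 of the 1121 falls (74.0%, against 41.6% of all genes tested). Its median difference from the WT mean was 1.39 over the rises and -1.20 over the falls, against 2.02 and -2.76 in leukemic library 2 and 2.02 and -1.77 in leukemic library 3. Double mutant 1 was the lowest of its group in 85.5% of the rises (33.0% of all genes tested). Nras(G12D) 3 was the lowest of its group in 81.8% of them (28.5%), and WT 2 was the highest of its group in 85.7% (38.4%).

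Transcript GC content moved with some of the steps. Over 13604 genes with a transcript (97.7%) the Spearman correlation of GC with the difference between Tet2-/- and WT was -0.31, across genes, which are not independent. The correlation was -0.22 for the step from stage 0 to 1, 0.22 for the step from 1 to 2, -0.0092 for the step from 2 to 3 and 0.12 for the slope. Within groups the deviation of a library from its group mean had correlations from -0.29 in Tet2-/- 3 to 0.32 in Tet2-/- 2. Median GC was 49.7% in the rises, 48.7% in the falls and 49.3% in all genes tested. The part of GC content in the slopes was not tested.

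The smallest p of all slopes was that of Tjp1. Tjp1 encodes ZO-1, a scaffold protein of tight junctions, and lies at chromosome 7, 65296165 to 65527781, minus strand (GRCm38, GENCODE M21, as for all gene positions below). Tjp1 measured 4.95, 5.44 and 2.75 CPM in WT libraries, 16.2, 8.85 and 15.6 in those of Tet2-/-, 11.1, 14.1 and 8.42 in those of Nras(G12D), 25.9, 66.1 and 36 in double mutants and 57, 101 and 81.9 in leukemic double mutants. All 6 single-mutant libraries were above the 3 WT libraries and below the 3 double mutant libraries, and the double mutant overlapped with the leukemic group through library 2 alone. The slope was 1.44 ± 0.12 per stage (adjusted p = 2.46e-05), 1.61 without the leukemic group and 1.36 to 1.52 over the fits without 1 library. Along the route through Tet2-/- alone it was 1.42 and through Nras(G12D) alone 1.45. Atf3, a stress-induced transcription factor of the AP-1 family (chromosome 1, 191170296 to 191218039, minus strand), rose by 1.76 ± 0.28 per stage (adjusted p = 0.00765). Atf3 measured 0.152, 0.0782 and 0.11 CPM in WT libraries, 0.17, 0.574 and 0.574 in those of Tet2-/-, 0.591, 0.801 and 0.496 in those of Nras(G12D), 3.63, 3.23 and 3.02 in double mutants and 1.3, 1.75 and 27.6 in leukemic double mutants. All single-mutant libraries were above WT and all double mutant libraries above the single mutants, whereas leukemic 1 and 2 were below the double mutant and leukemic 3 far above it. Without the leukemic group its slope was 2.34. The WT values of Atf3 lie near the level of 3 counts, 0.0775 to 0.127 CPM. The highest WT value, 0.152 CPM in WT 1, and the lowest single-mutant value, 0.17 CPM in Tet2-/- 1, stand for equal counts. These 2 values differ only through the scaled library size.

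**Figure D3:**
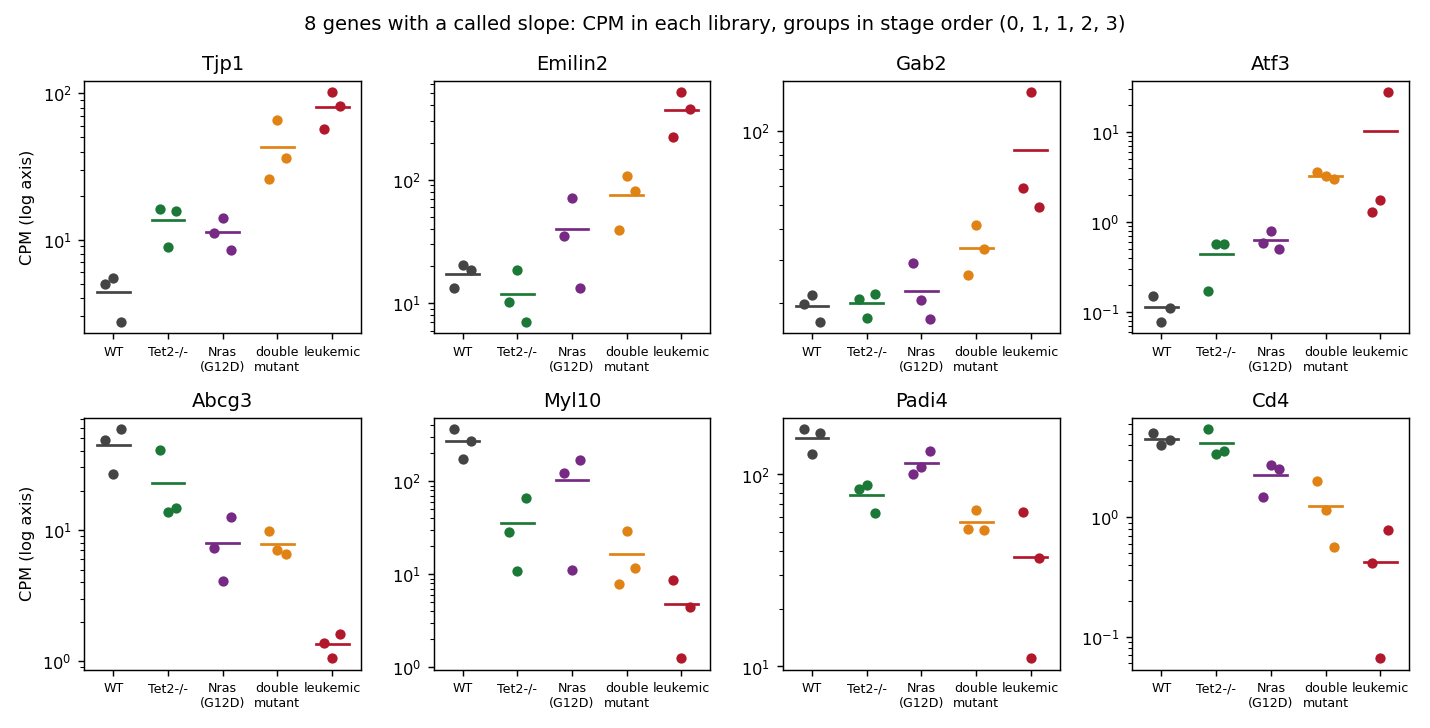
CPM (y axis, log scale) of 8 genes with a called slope in each of the 15 libraries, with groups in stage order on the x axis; dots are libraries and lines are group means. Tjp1 climbs from 2.75 to 5.44 CPM in WT to 57.0 to 101 CPM in the leukemic libraries, and Abcg3 descends from 26.8 to 58.6 CPM to 1.05 to 1.62 CPM.

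Other ordered rises included Emilin2, an extracellular matrix glycoprotein gene (chromosome 17, 71252172 to 71311978, minus strand). Emilin2 measured 13.4, 20.3 and 18.5 CPM in WT libraries, 10.3, 18.6 and 7.12 in those of Tet2-/-, 35.2, 70.5 and 13.2 in those of Nras(G12D), 39, 107 and 81.3 in double mutants and 223, 508 and 371 in leukemic double mutants, a slope of 1.55 ± 0.24 per stage (adjusted p = 0.00633). The 3 leukemic values of Emilin2 were above all others, while the Nras(G12D) values ran from below all WT values up to double mutant levels. Glrx5, which acts in mitochondrial iron-sulfur cluster assembly, measured 6.52, 15.1 and 6.04 CPM in WT libraries, 2.89, 4.02 and 5.23 in those of Tet2-/-, 25.2, 23 and 10.3 in those of Nras(G12D), 11.7, 68.8 and 80.9 in double mutants and 48.7, 179 and 168 in leukemic double mutants (slope 1.41 ± 0.29 per stage, adjusted p = 0.014). St3gal5, the GM3 ganglioside synthase gene, had a slope of 1.30 ± 0.28, Acss1, a mitochondrial acetyl-CoA synthetase gene, one of 1.19 ± 0.25, and Slc41a3, a magnesium transporter gene, one of 1.05 ± 0.24. In Slc41a3 the rise lay in the leukemic group: 7.96, 10.8 and 10.3 CPM in WT and 13.4, 12.8 and 10.01 in double mutants were followed by 40.1, 247 and 87.1 in the leukemic libraries. The RNA-binding protein gene Hnrnpab (1.19 ± 0.28), the TFIID and SAGA subunit gene Taf10 (1.10 ± 0.25) and Pithd1 (1.20 ± 0.26) reached their leukemic level in double mutant libraries 2 and 3 but not in double mutant 1. Taf10 measured 3.24, 5.52 and 2.49 CPM in WT libraries, 2.76, 2.78 and 3.61 in those of Tet2-/-, 14.5, 8.63 and 3.75 in those of Nras(G12D), 5.67, 41.9 and 46.2 in double mutants and 13.9, 25.5 and 45.3 in leukemic double mutants. Glrx5, St3gal5, Acss1, Slc41a3, Hnrnpab, Taf10 and Pithd1 were not called without leukemic library 2 or without leukemic library 3, with slopes of 0.75 to 1.59 over all single libraries left out.

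Rising genes with smaller slopes but small p-values were Pmaip1, Dyrk3 and Gab2. Pmaip1 encodes NOXA, a BH3-only protein that promotes apoptosis, and measured 7.39, 4.26 and 6.85 CPM in WT libraries, 3.48, 11.7 and 10.5 in those of Tet2-/-, 7.6, 3.87 and 10.5 in those of Nras(G12D), 27.1, 16.4 and 14.9 in double mutants and 36.4, 21.9 and 49 in leukemic double mutants. The double mutant and leukemic values of Pmaip1 lay above all WT and single-mutant values, and its slope was 0.92 ± 0.16 per stage (adjusted p = 0.00916). Dyrk3, a protein kinase gene, had a slope of 1.004 ± 0.18 per stage (adjusted p = 0.0102) and was not called without leukemic library 3, with slopes of 0.92 to 1.12 over all single libraries left out. Gab2, a docking protein that links receptors to RAS and PI3-kinase signalling, measured 19.8, 21.5 and 16.8 CPM in WT libraries, 20.9, 17.5 and 21.9 in those of Tet2-/-, 29.1, 20.6 and 17.2 in those of Nras(G12D), 26, 41.5 and 33.2 in double mutants and 58.4, 143 and 49.1 in leukemic double mutants. The Gab2 values of WT and the single mutants overlapped throughout, all leukemic values were above the double mutant, and the slope was 0.67 ± 0.12 per stage (adjusted p = 0.0102).

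Among genes with a mean log2 value of at least 3, the ordered falls were led by Myl10 and Abcg3. Myl10, a myosin regulatory light chain gene (chromosome 5, 136693146 to 136701094, plus strand), measured 363, 175 and 274 CPM in WT libraries, 28.6, 10.7 and 66.2 in those of Tet2-/-, 124, 11.2 and 171 in those of Nras(G12D), 7.95, 29.4 and 11.8 in double mutants and 8.75, 1.25 and 4.46 in leukemic double mutants. WT was above all other libraries, Nras(G12D) 2 was far below Nras(G12D) 1 and 3, and the slope was -1.97 ± 0.30 per stage (adjusted p = 0.00624). Abcg3, an ABC transporter gene (chromosome 5, 104935057 to 104982718, minus strand), measured 48.8, 26.8 and 58.6 CPM in WT libraries, 40.6, 13.7 and 14.6 in those of Tet2-/-, 7.23, 4.08 and 12.6 in those of Nras(G12D), 9.75, 7.06 and 6.6 in double mutants and 1.37, 1.05 and 1.62 in leukemic double mutants. The leukemic libraries were below all others and the Nras(G12D) and double mutant libraries overlapped, with a slope of -1.54 ± 0.20 per stage (adjusted p = 0.00402). Als2cl, which encodes a protein related to alsin, measured 91.3, 49 and 98.7 CPM in WT libraries, 13.8, 13.3 and 17.4 in those of Tet2-/-, 20.3, 9.07 and 53.4 in those of Nras(G12D), 11.8, 21.2 and 14.1 in double mutants and 6.31, 1.32 and 3.71 in leukemic double mutants (slope -1.36 ± 0.21 per stage, adjusted p = 0.00624). All mutant libraries except Nras(G12D) 3 were at 21.2 CPM or less in Als2cl.

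Further falls were Epha7, an ephrin receptor gene, with a slope of -1.32 ± 0.20 per stage (adjusted p = 0.00624), and Pygm, the muscle glycogen phosphorylase gene, with -1.27 ± 0.19 per stage (adjusted p = 0.00624). Pygm measured 51.5, 30.7 and 44.4 CPM in WT libraries, 51.1, 26.2 and 24.3 in those of Tet2-/-, 13.2, 37.5 and 32.8 in those of Nras(G12D), 9.89, 6.69 and 4.7 in double mutants and 10.2, 1.38 and 3.96 in leukemic double mutants. In Pygm the fall lay between the single mutants, which overlapped with WT, and the double mutant, which was below all of them and overlapped with the leukemic group. Ldhb, the B subunit of lactate dehydrogenase, measured 101, 78.9 and 93 CPM in WT libraries, 117, 58.4 and 86.9 in those of Tet2-/-, 44.4, 43.4 and 56.9 in those of Nras(G12D), 42, 38 and 51 in double mutants and 16.5, 2.34 and 5.64 in leukemic double mutants (slope -1.25 ± 0.21 per stage, adjusted p = 0.00868). Its leukemic values were below all others. Hnf4a, a nuclear receptor best known from liver and gut, fell with a slope of -1.20 ± 0.20 per stage (adjusted p = 0.00883), and Bpifc, of the BPI fold family, with -1.16 ± 0.18 per stage (adjusted p = 0.00693). Mmrn1, which encodes multimerin 1 of platelets and endothelium (-1.28 ± 0.35), and Gulp1, an engulfment adaptor gene (-1.27 ± 0.33), were not called without leukemic library 2 or 3, where their slopes were -0.83 to -1.13.

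The letters around the start sites of Tjp1, Atf3, Abcg3 and Myl10 are shown as examples of the rises and falls described above. Each run spans 250 bases before to 50 bases after the RefSeq start on GRCm38.p6, read 5′ to 3′ on the gene's strand. Matches to 6 short motifs on either strand are in capitals. Over all 27025 promoters of the table, TGANTCA of the AP-1 family was matched in 7.93% and the GATA factor letters AGATAA were matched in 11.4%. The PU.1 letters GAGGAA were matched in 28.3% and the wider ETS family letters CCGGAA were matched in 15.2%. The E-box CACGTG was matched in 7.24% and the E2F letters GCGCCAA were matched in 2.54%. The windows are Tjp1 at chr7:65371195-65371494, minus strand, Atf3 at chr1:191183284-191183583, minus strand, Abcg3 at chr5:104982668-104982967, minus strand, and Myl10, the first listed of its 3 starts, at chr5:136692896-136693195, plus strand. The GENCODE spans of Tjp1 and Atf3 given above begin upstream of these windows, which therefore do not cover the outermost starts of these genes.
Tjp1: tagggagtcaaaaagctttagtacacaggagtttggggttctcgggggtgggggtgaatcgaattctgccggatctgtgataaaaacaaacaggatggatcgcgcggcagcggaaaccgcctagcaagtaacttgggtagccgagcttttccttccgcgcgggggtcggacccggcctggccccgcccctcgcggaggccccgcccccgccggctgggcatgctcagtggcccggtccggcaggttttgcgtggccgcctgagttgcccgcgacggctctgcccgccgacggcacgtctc
Atf3: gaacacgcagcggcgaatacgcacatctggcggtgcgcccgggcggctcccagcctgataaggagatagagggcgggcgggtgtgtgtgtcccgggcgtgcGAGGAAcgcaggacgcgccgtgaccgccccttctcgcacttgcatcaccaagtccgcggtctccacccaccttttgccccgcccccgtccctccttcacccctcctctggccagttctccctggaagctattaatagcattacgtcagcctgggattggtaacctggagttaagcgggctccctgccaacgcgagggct
Abcg3: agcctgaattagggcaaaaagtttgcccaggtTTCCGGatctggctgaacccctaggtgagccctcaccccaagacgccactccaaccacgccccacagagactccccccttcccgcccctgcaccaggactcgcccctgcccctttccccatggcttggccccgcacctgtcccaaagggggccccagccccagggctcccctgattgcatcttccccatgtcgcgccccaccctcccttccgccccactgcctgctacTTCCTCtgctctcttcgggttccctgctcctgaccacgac
Myl10: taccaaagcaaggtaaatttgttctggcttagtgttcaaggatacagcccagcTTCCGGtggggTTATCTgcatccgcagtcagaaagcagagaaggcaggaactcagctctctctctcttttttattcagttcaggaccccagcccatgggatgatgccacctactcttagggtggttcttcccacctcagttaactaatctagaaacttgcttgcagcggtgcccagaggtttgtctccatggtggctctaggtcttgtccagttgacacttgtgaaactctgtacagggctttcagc
The Tjp1 window held none of these letters. The Atf3 window held a PU.1 match 149 bases before the start. The Abcg3 window held an ETS match 218 bases before the start and a PU.1 match 10 bases after it, and the Myl10 window an ETS match 197 and a GATA match 186 bases before. A match is a stretch of letters and no evidence of binding. A comparison of promoters between the rising and the falling genes was void, since the table matched 77.8% and 73.5% of them, under the 80% required.

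Many genes of blood stem cells fell along the stages. Of 28 stem cell genes tested, 12 fell and 0 rose, against 8.05% of all genes tested that fell (limma, 0 rises and 17 falls at an unadjusted p below 0.05, 1 rise and 5 falls with voom weights). The median slope was -0.55, and -0.06 without the leukemic group. Without leukemic library 2 the list held 1 fall and without leukemic library 3 none, with medians of -0.29 and -0.45. Hlf, a transcription factor of stem cell identity, measured 254, 217 and 238 CPM in WT libraries, 202, 198 and 145 in those of Tet2-/-, 166, 179 and 169 in those of Nras(G12D), 166, 244 and 199 in double mutants and 77.5, 3.89 and 22.7 in leukemic double mutants (slope -1.08 ± 0.27 per stage, adjusted p = 0.0232). All leukemic Hlf values were below all others, whereas the double mutant overlapped with both single mutants and with WT. Prdm16, a zinc finger regulator of stem cell maintenance, measured 30.03, 30.9 and 30.9 CPM in WT libraries, 28.8, 20.1 and 11.9 in those of Tet2-/-, 17.2, 14.6 and 14.7 in those of Nras(G12D), 18.7, 15.2 and 18 in double mutants and 14, 5.93 and 7.64 in leukemic double mutants. WT was above all other Prdm16 values, the single and double mutants overlapped, and the slope was -0.53 ± 0.11 per stage (adjusted p = 0.0164). Ndn, which encodes necdin, measured 11.2, 12.5 and 15.3 CPM in WT libraries, 8.28, 7.76 and 0.861 in those of Tet2-/-, 2.55, 4.44 and 3.75 in those of Nras(G12D), 2.94, 1.57 and 2.14 in double mutants and 1.13, 0 and 0.156 in leukemic double mutants. The WT values of Ndn were above all others (slope -2.002 ± 0.36 per stage, adjusted p = 0.0101, which depends on the added count for the library at 0). Other falls included Mecom, Procr, Meis1, Erg, Fli1, Tie1 and Angpt1, with slopes from -0.45 to -1.07. In bulk libraries, fewer cells of a type and less RNA per cell cannot be told apart.

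The summed level of the 28 stem cell genes was 3073 to 3404 CPM in WT, 2239 to 4899 in the single mutants, 3062 to 3239 in the double mutant, and 2410.4, 660 and 1090 in leukemic libraries 1 to 3. Leukemic 2 and 3 were below the other 13 libraries in this sum, and leukemic 1 was within the single-mutant range. Among 12 genes of the LSK gate and progenitor surface, 4 fell, among them Cd34, Cd27 and Procr, against 8.05% of all genes that fell. None of the 12 rose (0 at an unadjusted p below 0.05 and 0 with voom weights). Cd34, a sialomucin on progenitors, measured 1399, 1307 and 1428 CPM in WT libraries, 1574, 1836 and 1688 in those of Tet2-/-, 969, 2012 and 1395 in those of Nras(G12D), 1296, 1194 and 1169 in double mutants and 1099, 129 and 316 in leukemic double mutants (slope -0.65 ± 0.19 per stage, adjusted p = 0.033). Leukemic 2 and 3 alone were low. Procr, the endothelial protein C receptor on stem cells, measured 44.5, 37.4 and 38 CPM in WT libraries, 132, 44.5 and 51.4 in those of Tet2-/-, 16.2, 17.2 and 30.3 in those of Nras(G12D), 41.3, 29.1 and 40.5 in double mutants and 11.6, 0.922 and 4.18 in leukemic double mutants (slope -1.07 ± 0.30 per stage, adjusted p = 0.0305). Kit (slope -0.48), Ly6a (0.04), Cd48 (0.01) and Slamf1 (0.04) were not called. When either leukemic library 2 or 3 was left out, 0 of the 12 fell, while the median slope, -0.28 with all libraries, was -0.14 and -0.30. With voom weights 1 fell.

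Of 25 genes tied to self-renewal in leukemia, 6 fell (Meis1, Mecom, Mef2c, Mn1, Erg and Msi2) and 1 rose, Ctnnb1, which encodes beta-catenin (slope 0.62), against 8.05% of all genes that fell and 6.81% that rose. With voom weights 1 fell and 3 rose. Meis1, a HOX cofactor, measured 458, 362 and 423 CPM in WT libraries, 745, 439 and 579.9 in those of Tet2-/-, 228, 376 and 370.2 in those of Nras(G12D), 356, 365 and 370.4 in double mutants and 191, 23.6 and 75.4 in leukemic double mutants (slope -0.82 ± 0.21 per stage, adjusted p = 0.0252). Mn1, a transcriptional coregulator and leukemia oncogene, measured 18.3, 12.9 and 15.1 CPM in WT libraries, 19.3, 24.3 and 31.1 in those of Tet2-/-, 25, 33.7 and 27.5 in those of Nras(G12D), 13.8, 7.39 and 5.83 in double mutants and 3.33, 0.362 and 2.59 in leukemic double mutants. In Mn1 the single mutants lay above WT, 2 of the 3 double mutant values below it and the leukemic values below all (slope -1.25 ± 0.27 per stage, adjusted p = 0.0164). The HOX genes Hoxa5, Hoxa6, Hoxa7, Hoxa9, Hoxa10, Hoxb4 and Hoxb5 were not called, with slopes from -0.37 to -0.12. The median slope of the list was -0.26, and 0.13 without the leukemic group. With leukemic library 2 or 3 removed, 0 of the 25 rose or fell, and the median was -0.0081 and -0.21.

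**Figure D4:**
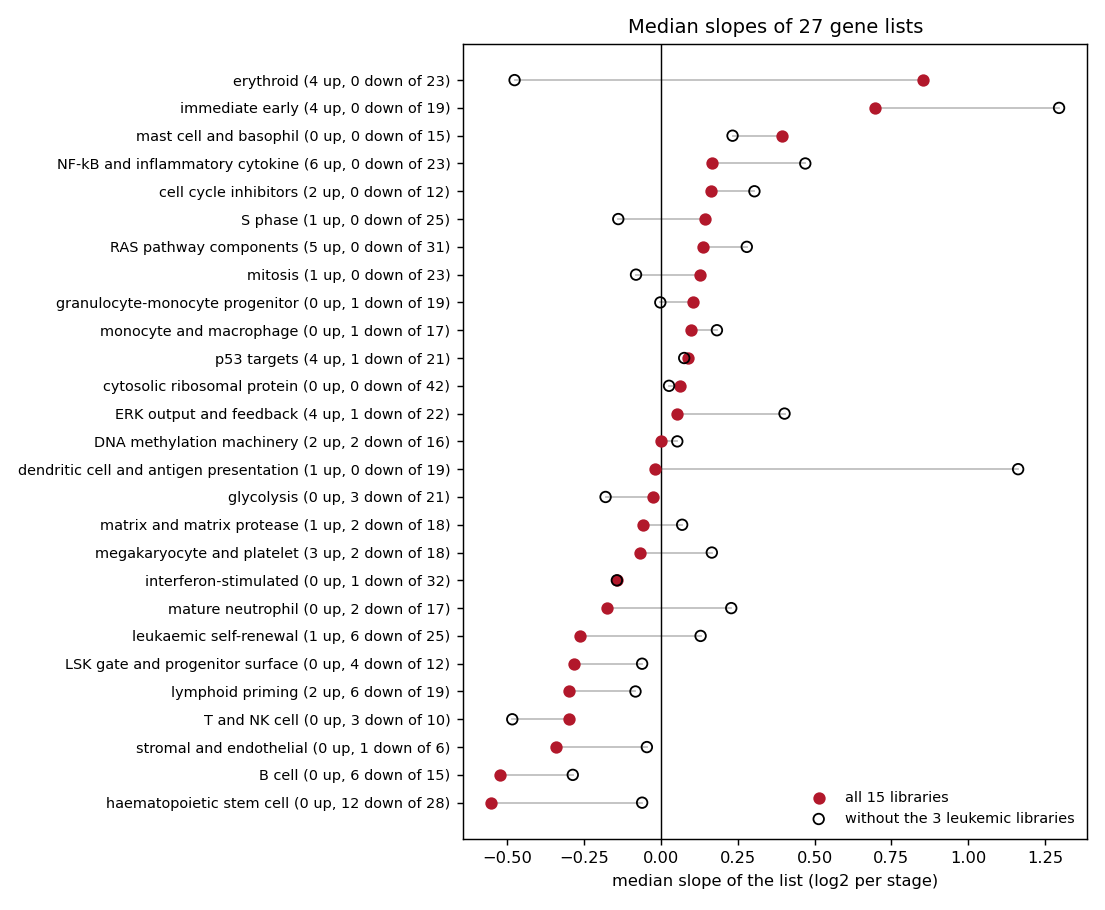
Median slope of 27 gene lists (x axis, log2 per stage) with all 15 libraries (filled) and without the 3 leukemic libraries (open); the y axis names each list with its number of rising and falling genes. The erythroid median changes from 0.85 to -0.48 and the dendritic cell median from -0.02 to 1.16 when the leukemic libraries are left out.

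Some lymphoid genes fell as well, and Rag2 and Dntt were already low in the double mutant. Of 19 lymphoid priming genes tested, 6 fell (Rag2, Rag1, Dntt, Mef2c, Cd27 and Lax1) and 2 rose (Tcf3 and Tcf12, which encode E proteins), against 8.05% and 6.81% of all genes. Rag2, a subunit of the V(D)J recombinase, measured 21.2, 17.3 and 18.5 CPM in WT libraries, 13.3, 29.1 and 31.9 in those of Tet2-/-, 18.3, 25.2 and 38.2 in those of Nras(G12D), 9.93, 7.3 and 2.6 in double mutants and 2.44, 0.922 and 3.49 in leukemic double mutants. The double mutant and leukemic values of Rag2 were below all WT and single-mutant values, and the slope was -1.25 ± 0.22 per stage (adjusted p = 0.00986). Dntt, which encodes terminal transferase, measured 1022, 779.99 and 879 CPM in WT libraries, 949.6, 1084 and 1469 in those of Tet2-/-, 821, 1473 and 1387 in those of Nras(G12D), 419, 324 and 98.4 in double mutants and 338, 68.2 and 298 in leukemic double mutants (slope -0.96 ± 0.22 per stage, adjusted p = 0.0184), with the same absence of overlap. Tcf3 measured 40.2, 96.4 and 64.8 CPM in WT libraries, 7.18, 39.98 and 8.81 in those of Tet2-/-, 119, 163 and 38.8 in those of Nras(G12D), 95, 294 and 244 in double mutants and 214, 434 and 447 in leukemic double mutants (slope 1.07 ± 0.34 per stage, adjusted p = 0.0426). Within groups the values of Tcf3 were far apart, most of all in Tet2-/-. The lymphoid list had a median slope of -0.30, its 6 falls became 1 without leukemic library 2 and 1 without leukemic library 3, with medians of -0.18 and -0.32, and its summed level was 7113 to 12884 CPM in WT, 4397 to 7806 in the single mutants, 4003 to 4371 in the double mutant, and 6758, 3563 and 8654 in leukemic libraries 1 to 3.

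Of 15 B cell genes, 6 fell (Cr2, Blk, Cd79b, Bank1, Fcer2a and Cd72) and 0 rose (0 at an unadjusted p below 0.05 and 0 with voom weights), against 8.05% of all genes that fell, with a median slope of -0.52. Without leukemic library 2, 0 of them fell, and without leukemic library 3, 1, while the median slope was -0.37 and -0.61. Blk, a SRC-family kinase of B cells, measured 11.6, 3.8 and 6.96 CPM in WT libraries, 2.8, 1.78 and 3.64 in those of Tet2-/-, 2.25, 1.24 and 10.1 in those of Nras(G12D), 2.21, 1.36 and 1.09 in double mutants and 1.1, 0.329 and 1.75 in leukemic double mutants (slope -0.96 ± 0.22 per stage, adjusted p = 0.018). Cd72, a B cell coreceptor, measured 58.7, 48.6 and 52.8 CPM in WT libraries, 123, 71.9 and 90.1 in those of Tet2-/-, 46.1, 49.1 and 69.2 in those of Nras(G12D), 63.2, 48.2 and 58.7 in double mutants and 24.6, 2.67 and 10.5 in leukemic double mutants, a slope of -0.85 ± 0.24 per stage (adjusted p = 0.0319). Cd72 was higher in Tet2-/- than in WT and low in the leukemic libraries alone, with a slope of 0.04 without them. The summed level of the list was 131 to 176 CPM in WT, 113 to 238 in the single mutants, 105 to 141 in the double mutant, and 80.6, 23.1 and 66.5 in leukemic libraries 1 to 3.

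Of the 10 T and NK cell genes tested, out of 19 listed, 3 fell (Cd4, Lck and Cd5) and 0 rose (0 at an unadjusted p below 0.05, 1 with voom weights). For this list and the stromal one below, the share of all genes tested that fell was 8.05%. Cd4 measured 5.07, 4.03 and 4.43 CPM in WT libraries, 5.44, 3.38 and 3.57 in those of Tet2-/-, 1.48, 2.74 and 2.51 in those of Nras(G12D), 2.01, 1.15 and 0.562 in double mutants and 0.412, 0.0659 and 0.779 in leukemic double mutants (slope -1.34 ± 0.22 per stage, adjusted p = 0.00834), scarce in every library, with the leukemic values and double mutant 3 the lowest. Cd4 was the single member called without leukemic library 2 and without leukemic library 3, with list medians of -0.18 and -0.33 against -0.30 with all libraries. Lck, a SRC-family kinase of T cells and lymphoid progenitors, measured 50.4, 53.9 and 44.8 CPM in WT libraries, 70.6, 82.8 and 82.8 in those of Tet2-/-, 42.4, 91.8 and 89.9 in those of Nras(G12D), 42.1, 29.6 and 19.9 in double mutants and 18.2, 6.36 and 21.3 in leukemic double mutants (slope -0.75 ± 0.18 per stage, adjusted p = 0.0191). The T cell marker Cd3e was at 0 counts in 4 libraries and at most 1.22 CPM. Of the 6 stromal and endothelial genes tested, out of 16 listed, 1 fell, Bgn, which encodes the matrix proteoglycan biglycan (slope -1.16 ± 0.27 per stage, adjusted p = 0.0191, at 12.5, 7.86 and 14.9 CPM in WT and 3.43, 0.231 and 0.935 in the leukemic libraries), and 0 rose (0 at an unadjusted p below 0.05 and 0 with voom weights). Col1a1 was at most 0.469 CPM and Cdh5 at most 0.256 CPM in all libraries. The part of these cell types in the slopes was not tested.

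Few granulocyte and monocyte genes were called, and of all genes tested too only 6.81% rose and 8.05% fell. Of 19 granulocyte-monocyte progenitor genes, 1 fell, Csf3r, the G-CSF receptor gene (slope -0.58 ± 0.17 per stage, adjusted p = 0.0343), and 0 rose (2 at an unadjusted p below 0.05 and 2 with voom weights). Mpo, which encodes myeloperoxidase (slope 0.01), Elane (-0.13), Cebpa (0.10) and Irf8 (0.36) were not called. Csf3r measured 248, 208 and 222 CPM in WT libraries, 475, 303 and 414 in those of Tet2-/-, 135, 220.1 and 244 in those of Nras(G12D), 177, 195 and 169 in double mutants and 158, 33.7 and 74.8 in leukemic double mutants, highest in the 3 Tet2-/- libraries and lowest in leukemic 2 and 3. Of 17 mature neutrophil genes, 2 fell (Padi4 and Itgam) and 0 rose (1 at an unadjusted p below 0.05 and 1 with voom weights). Padi4, a peptidylarginine deiminase of granulocytes, measured 172, 128 and 165 CPM in WT libraries, 84.2, 88.3 and 63.1 in those of Tet2-/-, 101, 109.9 and 133 in those of Nras(G12D), 52.2, 65.6 and 51.4 in double mutants and 63.6, 11 and 36.9 in leukemic double mutants. Nras(G12D) 3 overlapped with WT, and the double mutant and leukemic values overlapped with the lowest Tet2-/- value and no other (slope -0.79 ± 0.14 per stage, adjusted p = 0.00921). The summed level of neutrophil genes was 421 to 496 CPM in WT, 321 to 4934 in the single mutants, 273 to 592 in the double mutant, and 388, 194 and 269.9 in leukemic libraries 1 to 3. The highest single-mutant value was that of Nras(G12D) 2, at 4934 CPM, with the granule gene Ltf at 744 CPM against 87.1 CPM or less elsewhere. Of 17 monocyte and macrophage genes 1 fell, Itgam, and 0 rose (5 at an unadjusted p below 0.05 and 4 with voom weights).

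Genes of dendritic cells and antigen presentation peaked before leukemia. Of 19 tested, 1 rose (Zbtb46, a transcription factor of conventional dendritic cells), against 6.81% of all genes, and 0 fell. At an unadjusted p below 0.05 there were 2 rises and 2 falls, and with voom weights 6 rises and 1 fall. A departure from a line was called for 14, against 24.3% of all genes, a count that dropped to 125 to 280 of all genes without WT 2 or 3, Tet2-/- 1 or 3, or double mutant 2 or 3. The median difference from WT was 1.13 in the single mutants, 2.33 in the double mutant and 0.04 in the leukemic double mutant. The summed level was 1378 to 1705 CPM in WT, 2112 to 5651 in the single mutants, 3502 to 5339 in the double mutant, and 1903, 846 and 1301 in leukemic libraries 1 to 3. All double mutant libraries were above all WT and all leukemic libraries in this sum. Zbtb46 measured 2.59, 2.7 and 2.42 CPM in WT libraries, 1.95, 4.44 and 5.81 in those of Tet2-/-, 12.5, 3.41 and 4.06 in those of Nras(G12D), 9.55, 20.1 and 19.7 in double mutants and 4.26, 30.6 and 28.1 in leukemic double mutants (slope 0.97 ± 0.22 per stage, adjusted p = 0.0184), with leukemic 2 and 3 at the top and leukemic 1 within the single-mutant range. The call was lost without leukemic 2 or 3, although the slope was 0.88 to 1.26 over all single libraries left out. Of 15 mast cell and basophil genes 0 rose and 0 fell (limma, 6 rises at an unadjusted p below 0.05, 4 rises with voom weights), with a median slope of 0.39. Cma1, a mast cell chymase gene, measured 17, 2.14 and 22.1 CPM in the leukemic libraries and at most 1.60 CPM elsewhere (slope 1.60 ± 0.54 per stage, adjusted p = 0.0541), and Tpsb2, a tryptase gene, at 34.1, 1.28 and 7.26 CPM and at most 1.06 CPM elsewhere (slope 1.53 ± 0.67 per stage, adjusted p = 0.124).

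Erythroid genes were high in leukemic libraries 2 and 3 and did not follow the order of the other groups. Of 23 tested, 4 rose (Gata1, Epor, Tfrc and Zfpm1), against 6.81% of all genes, and 0 fell. At an unadjusted p below 0.05 there were 15 rises and 0 falls, and with voom weights 0 of either. A departure from a line was called for 17, against 24.3% of all genes, with the same dependence on single libraries. The median slope was 0.85 with all libraries and -0.48 without the leukemic group, and 0 rose without leukemic library 2 or without leukemic library 3, with medians of 0.46 and 0.66. With Y-linked expression as a covariate, 10 rose. Gata1, the erythroid and megakaryocytic master factor, measured 27.4, 32.5 and 33.8 CPM in WT libraries, 17.2, 16.4 and 32.7 in those of Tet2-/-, 49.3, 68.9 and 44.7 in those of Nras(G12D), 39.5, 33.3 and 31 in double mutants and 63.8, 445 and 248 in leukemic double mutants (slope 0.81 ± 0.23 per stage, adjusted p = 0.031). Epor, the erythropoietin receptor gene, measured 7.7, 14.4 and 13.5 CPM in WT libraries, 1.66, 4.08 and 1.6 in those of Tet2-/-, 16.1, 19.99 and 6.84 in those of Nras(G12D), 12, 9.53 and 8.25 in double mutants and 43.2, 299 and 176 in leukemic double mutants (slope 1.23 ± 0.38 per stage, adjusted p = 0.0412). In Epor all 3 Tet2-/- libraries were below all others, and the slope was -0.11 without the leukemic group. Tfrc, the transferrin receptor gene, measured 240.3, 2363 and 990.4 CPM in the leukemic libraries and 138, 138 and 142 in WT (slope 0.75 ± 0.23 per stage, adjusted p = 0.0384). The defining marker Hba-a1, a globin gene, was at 7.93, 163 and 22.9 CPM in leukemic libraries 1 to 3 and at most 5.95 CPM in the others. The summed level of the list was 1984 to 2212 CPM in WT, 1593 to 3134 in the single mutants, 1744 to 2176 in the double mutant, and 2343, 16872 and 8014 in leukemic libraries 1 to 3. The part of erythroid cells in the other slopes was not tested.

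Of 18 megakaryocyte and platelet genes, 3 rose (Gp1bb, Gp5 and Rap1b) and 2 fell, among them Thbs1, against 6.81% and 8.05% of all genes. Thbs1, which encodes thrombospondin-1, measured 304, 77.2 and 302 CPM in WT libraries, 2.08, 0.966 and 2.84 in those of Tet2-/-, 2.69, 7.05 and 29.9 in those of Nras(G12D), 0.899, 2.02 and 1.26 in double mutants and 1.89, 2.63 and 4.93 in leukemic double mutants. The fall of Thbs1 lay between WT and the mutants, all of which were at 29.9 CPM or less, and the slope (-1.82 ± 0.49 per stage, adjusted p = 0.0266) was not called without WT 1 or WT 3 or without leukemic 2 or 3, with slopes of -1.48 to -2.15 over all single libraries left out. Its departure from a line was called (adjusted p = 0.00989). Gp5, a platelet glycoprotein gene, measured 0.724, 1.6 and 1.1 CPM in WT libraries, 0.34, 0.453 and 0.798 in those of Tet2-/-, 6.64, 5.32 and 1.64 in those of Nras(G12D), 3.04, 21.8 and 23.5 in double mutants and 4.19, 6.52 and 13.7 in leukemic double mutants (slope 1.17 ± 0.36 per stage, adjusted p = 0.038), with double mutant 2 and 3 above every other library. Rap1b, a small GTPase of platelet activation, had a slope of 0.78 ± 0.22 per stage (adjusted p = 0.0319) and was likewise highest in double mutant 2 and 3. After removal of leukemic library 2 or 3, 0 of the 18 rose or fell, with medians of 0.0489 and 0.0057 against -0.07 with all libraries.

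**Figure D5:**
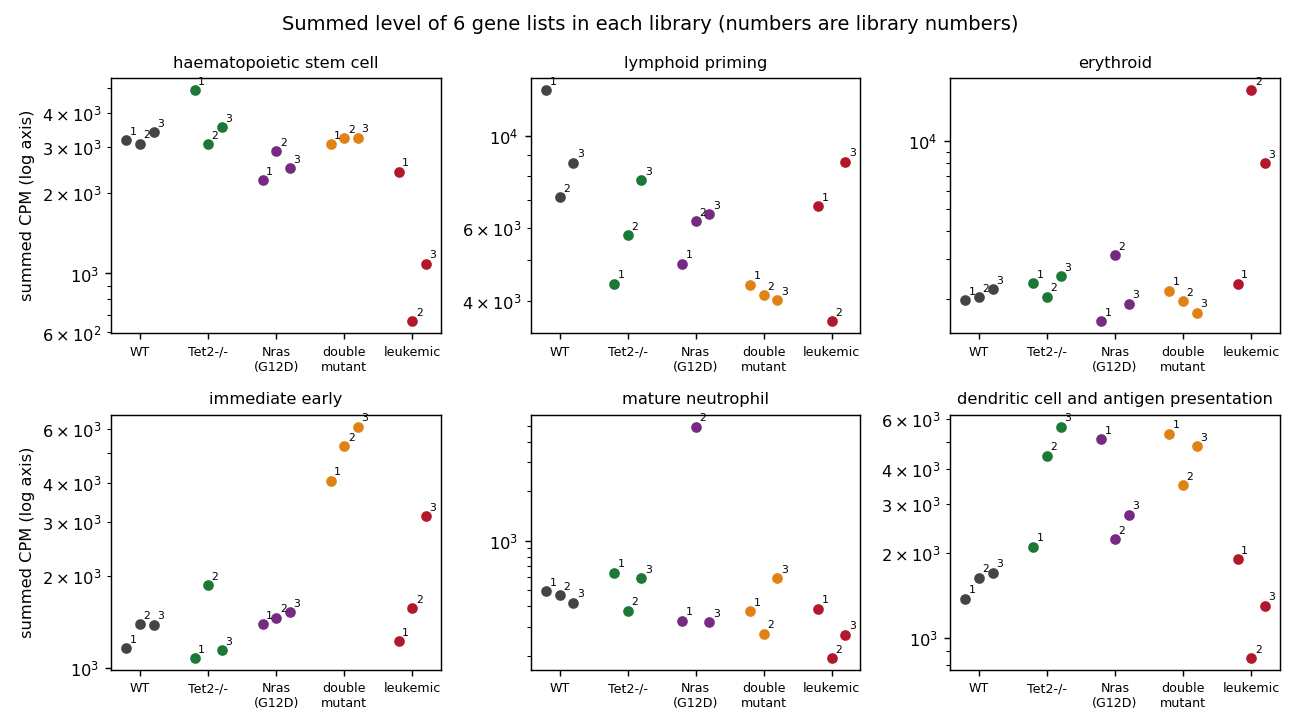
Summed CPM of 6 gene lists (y axis, log scale) in each library, with groups in stage order on the x axis and library numbers beside the dots. Stem cell genes are low and erythroid genes high in leukemic libraries 2 and 3, immediate early genes are highest in the double mutant, and neutrophil genes are high in Nras(G12D) library 2.

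Some components of the RAS pathway rose. Of 31 tested, 5 rose, among them Hras, Gab2 and Map2k2, against 6.81% of all genes, and 0 fell (2 at an unadjusted p below 0.05 and 0 with voom weights). The median slope was 0.14, and 0.28 without the leukemic group. Hras measured 2.44, 2.74 and 1.46 CPM in WT libraries, 1.61, 1.45 and 2.65 in those of Tet2-/-, 9.56, 2.27 and 2.85 in those of Nras(G12D), 2.8, 15 and 16.2 in double mutants and 5.94, 12.4 and 20.8 in leukemic double mutants (slope 0.93 ± 0.23 per stage, adjusted p = 0.0216). In Hras, double mutant 1 was within the single-mutant range and double mutant 2 and 3 above it. Map2k2, the MEK2 gene, had a slope of 0.98 ± 0.27 per stage (adjusted p = 0.0283). Map2k2 measured 19.6, 40.7 and 23.6 CPM in WT libraries, 7.01, 15.8 and 7.43 in those of Tet2-/-, 58.3, 67.8 and 21 in those of Nras(G12D), 34.1, 134 and 138 in double mutants and 87.9, 153 and 188 in leukemic double mutants, with the Tet2-/- values below all others. In the fits lacking leukemic library 2 or 3, 1 of the 31 rose, Gab2, while the median slope was 0.20 and 0.18. With voom weights 8 rose. Nras itself (chromosome 3, 103058285 to 103067914, plus strand) had a slope of -0.06 ± 0.08 per stage (adjusted p = 0.616) and was at 145 to 282 CPM over all libraries. Gene totals do not show a change of 1 codon.

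Output and feedback genes of ERK signalling were divided. Of 22 tested, 4 rose (Spry1, Etv4, Egr1 and Maff) and 1 fell (Etv1), against 6.81% and 8.05% of all genes, with a median slope of 0.05 that was -0.02 with total-count scaling and -0.01 with median centring. Without the leukemic group the median was 0.40. Their summed level was 1079.7 to 1313 CPM in WT, 657 to 1599 in the single mutants, 2073 to 2413 in the double mutant, and 1007, 1153 and 1726 in leukemic libraries 1 to 3. The double mutant libraries were above all others in this sum. Spry1, a feedback inhibitor of receptor signalling, measured 2.36, 4.07 and 3 CPM in WT libraries, 1.23, 3.84 and 1.6 in those of Tet2-/-, 8.19, 4.08 and 5.2 in those of Nras(G12D), 7.19, 9.26 and 11.2 in double mutants and 9.09, 23 and 6.08 in leukemic double mutants (slope 0.72 ± 0.20 per stage, adjusted p = 0.0284). Spry2, its paralogue, measured 2.63, 2.35 and 1.79 CPM in WT libraries, 2.42, 3.5 and 4.85 in those of Tet2-/-, 6.09, 2.61 and 4.89 in those of Nras(G12D), 6.29, 5.64 and 6.99 in double mutants and 3.26, 0.692 and 2.12 in leukemic double mutants and had no called slope (-0.07 ± 0.22 per stage, adjusted p = 0.839) but departed from a line (adjusted p = 0.0423). Dusp6, the phosphatase that inactivates ERK, measured 124, 173 and 186 CPM in WT libraries, 32.8, 286 and 81.9 in those of Tet2-/-, 154, 304 and 184 in those of Nras(G12D), 271, 226 and 226 in double mutants and 119, 28 and 65.1 in leukemic double mutants (slope -0.33 ± 0.24 per stage, adjusted p = 0.349). For Spry2 and Dusp6 the leukemic values lay below the double mutant values. Etv4 had a slope of 1.08 ± 0.31 per stage (adjusted p = 0.0319) and Etv1 one of -0.91 ± 0.22 per stage (adjusted p = 0.0204), both ETS factors. Once leukemic 2 or 3 was left out, 0 of the 22 rose or fell, with medians of 0.18 and 0.0551.

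Immediate early genes, which growth factor signals switch on, were highest in the double mutant. Of 19 tested, 4 rose (Atf3, Egr1, Junb and Dusp1), against 6.81% of all genes, and 0 fell. At an unadjusted p below 0.05 there were 9 rises and 0 falls, and with voom weights 11 rises and 0 falls. A departure from a line was called for 16, against 24.3% of all genes, a share that itself depended on single libraries as given above. The median difference from WT was 0.26 in the single mutants, 2.59 in the double mutant and 1.16 in the leukemic double mutant. Egr1, a zinc finger factor induced by growth signals, measured 5.95, 12.2 and 8.13 CPM in WT libraries, 18.8, 13.4 and 4.18 in those of Tet2-/-, 6.42, 5.94 and 7.56 in those of Nras(G12D), 181, 189 and 163 in double mutants and 23.8, 21.6 and 149.7 in leukemic double mutants (slope 1.23 ± 0.36 per stage, adjusted p = 0.0334). Dusp1, a MAP kinase phosphatase gene, measured 5.49, 12.7 and 7.1 CPM in WT libraries, 5.82, 8.21 and 5.93 in those of Tet2-/-, 13.9, 16 and 11.4 in those of Nras(G12D), 69.5, 408 and 487 in double mutants and 22, 24.7 and 152 in leukemic double mutants (slope 1.29 ± 0.40 per stage, adjusted p = 0.0398), and Junb, an AP-1 subunit gene, measured 26.8, 71.1 and 58.3 CPM in WT libraries, 14.1, 63.8 and 8.93 in those of Tet2-/-, 64.4, 72.5 and 33.6 in those of Nras(G12D), 282, 271 and 319 in double mutants and 112, 155 and 287 in leukemic double mutants (slope 0.95 ± 0.29 per stage, adjusted p = 0.0397). In Egr1 the 3 double mutant values were above all others. The summed level of the list was 1164 to 1394 CPM in WT, 1080 to 1865 in the single mutants, 4077 to 6102 in the double mutant, and 1224, 1568 and 3126 in leukemic libraries 1 to 3. Without leukemic library 2 or without leukemic library 3, Atf3 alone of the 19 rose, while the list's median slope, 0.70 with all libraries, was 0.91 and 0.57.

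Of 23 NF-kB and inflammatory cytokine genes, 6 rose (Tnfaip2, Tnfaip3, Relb, Nfkbiz, Il6 and Cxcl2), against 6.81% of all genes, and 0 fell (3 at an unadjusted p below 0.05 and 0 with voom weights), with a median slope of 0.17. Tnfaip3, which encodes the NF-kB inhibitor A20, measured 8.57, 15.8 and 11.5 CPM in WT libraries, 6.97, 11.1 and 9.92 in those of Tet2-/-, 13.4, 22.6 and 10.7 in those of Nras(G12D), 23.9, 38.2 and 29.9 in double mutants and 21.1, 20.2 and 80.7 in leukemic double mutants (slope 0.62 ± 0.17 per stage, adjusted p = 0.0265). Tnfaip2, a gene induced by TNF, had a slope of 1.13 ± 0.26 per stage (adjusted p = 0.0188) and measured 11.7, 43.6 and 30.2 CPM in double mutants against 21, 144 and 155 in leukemic ones. The cytokine genes were scarce: Il6 measured 0.305, 0.469 and 0.146 CPM in WT libraries, 1.4, 0.876 and 1.47 in those of Tet2-/-, 0.738, 0.413 and 0.434 in those of Nras(G12D), 2.63, 2.62 and 3.44 in double mutants and 0.824, 1.15 and 2.24 in leukemic double mutants (slope 0.81 ± 0.24 per stage, adjusted p = 0.0337). Nfkb1 (slope 0.10), Rela (-0.06), Tnf (0.17) and Il1b (0.65) were not called. Without leukemic library 2, 1 of the 23 rose, and without leukemic library 3, 0, with medians of 0.40 and 0.13. Of 32 interferon-stimulated genes, 1 fell, Ddx58, which encodes the RNA sensor RIG-I (slope -0.52 ± 0.14 per stage, adjusted p = 0.0282), and 0 rose (1 at an unadjusted p below 0.05 and 0 with voom weights). Their median slope was -0.14, and 8.05% of all genes tested fell.

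In the DNA methylation machinery, 2 of 16 genes rose (Tdg and Mbd3) and 2 fell (Tet1 and Dnmt3a), against 6.81% and 8.05% of all genes. With voom weights 2 rose and 0 fell. Tdg, the glycosylase that removes oxidised methylcytosine, measured 20.7, 32.5 and 29.7 CPM in WT libraries, 18, 23.2 and 20.8 in those of Tet2-/-, 22.6, 54.6 and 24.1 in those of Nras(G12D), 31.6, 50.3 and 42 in double mutants and 81.3, 106 and 88.5 in leukemic double mutants. The leukemic values of Tdg were above all others (slope 0.62 ± 0.13 per stage, adjusted p = 0.0155). Tet1, the paralogue of Tet2, measured 114, 109.5 and 111 CPM in WT libraries, 162, 131 and 183 in those of Tet2-/-, 101, 105 and 126 in those of Nras(G12D), 108, 98.3 and 98 in double mutants and 81, 10.5 and 28.4 in leukemic double mutants (slope -0.65 ± 0.19 per stage, adjusted p = 0.0318), with the leukemic values below all others and leukemic 2 and 3 far below. Dnmt3a, a de novo methyltransferase gene, measured 114, 136 and 118 CPM in double mutants against 111, 41.3 and 69.3 in leukemic ones (slope -0.31 ± 0.10 per stage, adjusted p = 0.0404). All 4 calls were lost without leukemic library 2 and without leukemic library 3, although the slope of Tdg stayed between 0.55 and 0.70 over all single libraries left out. Tet2 had no called slope (-0.09 ± 0.10 per stage, adjusted p = 0.516), and its total of 32.3 to 76.5 CPM over all libraries need not follow the deletion, since the deleted part of the gene is not given in the sources used here. Dnmt1 (slope -0.02), Tet3 (-0.01) and Uhrf1 (0.06) were not called.

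Few cell cycle genes were called, and of all genes tested too only 6.81% rose and 8.05% fell. Of 25 S phase genes, 1 rose, Ccne1, which encodes cyclin E1, and 0 fell (0 at an unadjusted p below 0.05 and 0 with voom weights). Ccne1 measured 6.14, 8.1 and 6.04 CPM in WT libraries, 5.31, 4.77 and 4.5 in those of Tet2-/-, 8.12, 6.51 and 5.3 in those of Nras(G12D), 5.81, 18.7 and 11.5 in double mutants and 23.8, 141 and 129 in leukemic double mutants (slope 1.19 ± 0.24 per stage, adjusted p = 0.0136), highest in the 3 leukemic libraries, with WT and single-mutant values overlapping. Of 23 mitosis genes, 1 rose, Ccna2, which encodes cyclin A2 (slope 1.13 ± 0.31 per stage, adjusted p = 0.0279), and 0 fell (0 at an unadjusted p below 0.05 and 0 with voom weights). Ccna2 measured 33.7, 84.2 and 54.4 CPM in WT libraries, 6.33, 22.1 and 17 in those of Tet2-/-, 82.3, 141 and 41.8 in those of Nras(G12D), 77.7, 249.7 and 165 in double mutants and 202, 548 and 423 in leukemic double mutants, with the 3 Tet2-/- libraries below all others. The median slopes were 0.14 and 0.13, and -0.14 and -0.08 without the leukemic group. Mki67 had a slope of 0.21, Mcm6 one of 0.51 and Pcna one of 0.12, none of them called. Of 12 cell cycle inhibitors, 2 rose (Btg1 and Rb1) and 0 fell (0 at an unadjusted p below 0.05 and 0 with voom weights). Btg1, an antiproliferative gene, measured 9.87, 15.6 and 9.01 CPM in WT, 31.9, 82.4 and 90.5 in double mutants and 46.5, 24.6 and 46.5 in the leukemic libraries (slope 0.75 ± 0.19 per stage, adjusted p = 0.0235).

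Of 21 p53 target genes, 4 rose (Pmaip1, Gadd45a, Bax and Ei24) and 1 fell, Tnfrsf10b, a TRAIL receptor gene (slope -0.53 ± 0.12 per stage, adjusted p = 0.0184), against 6.81% and 8.05% of all genes. Gadd45a, a growth arrest gene, had a slope of 0.90 ± 0.23 per stage (adjusted p = 0.0234) and Bax, a pore-forming apoptosis gene, one of 0.41 ± 0.12 per stage (adjusted p = 0.035). Cdkn1a (slope 0.04) and Mdm2 (0.23) were not called. In fits without leukemic 2 or 3, 1 of the 21 rose, Pmaip1, with list medians of 0.0988 and 0.12 against 0.0871 with all libraries. Of 21 glycolysis genes, 3 fell (Ldhb, Slc2a1 and Hk2), against 8.05% of all genes, and 0 rose (0 at an unadjusted p below 0.05 and 0 with voom weights). Slc2a1, the GLUT1 glucose transporter gene, had a slope of -0.45 ± 0.12 per stage (adjusted p = 0.0271) and Hk2, the hexokinase 2 gene, one of -0.39 ± 0.12 per stage (adjusted p = 0.0427). The summed level of glycolysis genes was 6819 to 6951 CPM in WT, 5347 to 8667 in the single mutants, 5041 to 5416 in the double mutant, and 8845, 9403 and 9598 in leukemic libraries 1 to 3, so the sum was highest in the leukemic libraries although no single member rose. Of 42 cytosolic ribosomal protein genes, 0 rose and 0 fell (limma, 1 rise at an unadjusted p below 0.05, 0 with voom weights), with a median slope of 0.06 that was -0.01 with total-count scaling and -0.02 after quantile normalization.

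Of 18 matrix and matrix protease genes, 1 rose (Mmp14) and 2 fell (Mrc2 and Thbs1), against 6.81% and 8.05% of all genes. Mmp14, a membrane-bound matrix metalloproteinase gene, measured 1.49, 2.78 and 3.77 CPM in WT libraries, 1.57, 1.42 and 0.702 in those of Tet2-/-, 7.79, 9.74 and 2.04 in those of Nras(G12D), 5.53, 9.29 and 8.15 in double mutants and 19.3, 102 and 71.7 in leukemic double mutants (slope 1.53 ± 0.30 per stage, adjusted p = 0.0133). The leukemic values of Mmp14 were above all others, and the call was lost without leukemic 2 or 3, with slopes of 1.30 to 1.70 over all single libraries left out. Mrc2, a collagen-binding endocytic receptor gene, measured 6.36, 4.38 and 9.12 CPM in WT libraries, 0.0425, 0.121 and 0 in those of Tet2-/-, 0.148, 0.0258 and 0.991 in those of Nras(G12D), 0.0346, 0 and 0.0702 in double mutants and 0, 0 and 0.0935 in leukemic double mutants. WT alone held Mrc2 above 1 CPM, so its slope (-2.27 ± 0.52 per stage, adjusted p = 0.0184) depends on the added count, and a library at 0 counts is limited to 3 counts, or 0.0775 to 0.127 CPM (counting error only). Without its WT values Mrc2 would not have passed the filter, so a fall from WT was favoured in advance and the call of Mrc2 is only a description. Its call was lost without leukemic library 2, with slopes of -1.97 to -2.69 over all single libraries left out. Mmp2, Mmp9, Fn1 and Vcan were not called, with slopes of -0.68, -0.18, 0.14 and -0.12.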

How the data were processed

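LSK libraries (TruSeq stranded mRNA) were deposited as log2 CPM. The authors' log2 values hold whole counts plus 0.5 per 1000000 counts of scaled library size; whole counts were recovered from every value within 1e-06. The submitters' processing notes name bcl2fastq, STAR 2.4.0f1, edgeR 3.14.0, limma 3.28.21 and the builds mm10 and NCBIM37; for the counting tool, annotation and use of strand, nothing is given in the sources used here. CPM was computed as recovered count per 1000000 counts. Column N2-3 was taken as Nras(G12D) library 2. Slopes and departures were fitted with limma 3.58.1 (lmFit, eBayes with trend) over all 13927 genes, Benjamini-Hochberg adjusted below 0.05; the script was tested on simulated data. Totals of 22733189 to 43562909 counts put 3 counts at 0.0775 to 0.127 CPM. No library repeats another: replicate counts differed beyond counting error.

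Named were, among genes with a mean log2 value of at least 3 (unnamed models, pseudogenes, antigen receptor segments, mitochondrial and sex-linked genes left out), up to 10 rises and 10 falls of largest slope in strict stage order, 5 rises and 5 falls of smallest p, up to 4 called genes of each list, the 5 strongest departures among called slopes, and Tet2, Nras, Spry2 and Dusp6; other genes were named after their values were seen. Some genes of these lists are not reported here. Members and lists were chosen with earlier results of these data known. Alternatives covered scaling, filter, added count, weights, scores, routes, sex-linked expression and left-out libraries.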

Additional observations from a re-analysis of the deposited data

Results flagged for a closer look

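In 5 of 97 named genes 1 of the 6 single-mutant libraries lay far from the other 5, by Dixon's gap test at the 95% level, a share that chance alone can give. Hras, a RAS GTPase gene that rose with the stage, was at 9.56 CPM in Nras(G12D) 1, the highest value of the 6. Tdg, the demethylation glycosylase gene, was at 54.6 CPM in Nras(G12D) 2, also the highest. Bgn, which encodes biglycan, was at 34.4 CPM in Tet2-/- 1, above every other library. Lck, the lymphoid kinase gene, was at 42.4 CPM in Nras(G12D) 1, the lowest of the 6, and Atf3, the AP-1 factor gene, was at 0.17 CPM in Tet2-/- 1, next to the WT values.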

How the results depend on the processing

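The main counts were 948 rises, 1121 falls and 3378 departures. Scoring the number of mutations gave 4 rises and 11 falls, leaving out the leukemic group 4 and 2, and leaving out leukemic 2 and 3 together 1 and 1. Leaving out 1 library gave 8 to 1259 rises, 49 to 1252 falls and 125 to 6597 departures. Among these fits the slope counts were smallest without leukemic 3 (8 and 49) and leukemic 2 (16 and 62), and WT 1 left 516 rises. The route through Tet2-/- alone gave 612 and 693. Ranks turned to normal scores gave 0 and 0, with 4263 genes at an unadjusted p below 0.05 (limma). Taking the spread from within the 5 groups gave 2195 and 2189. Scaling by total counts gave 674 rises and 1745 falls. With no filter there were 726 falls and 1947 departures, with array weights, whose estimation did not converge, 557 and 11709, and with voom weights 656 and 8297. Without the leukemic group the slopes of Mt1 and Epor turned to -0.22 and -0.11, and those of Zc2hc1a and Cd72 to 0.0945 and 0.0418. The cause of these changes was not tested. In the labels, libraries with the same number shared only that number. Their deviations were correlated from -0.35 to 0.29. All pairs among WT 2, Tet2-/- 2, Nras(G12D) 2 and double mutant 2 had positive values, from 0.11 to 0.29. Pairs of these with leukemic 2 had values from -0.0072 to 0.079. The cause was not tested. A replicate block gave 858 rises, 919 falls and 3587 departures. The fit on libraries without Y-linked expression was chosen after seeing the data.

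The trend orders 5 groups of 3 libraries on an assumed score, and the single mutants share a score although they differed from WT in opposite directions for most rising genes. Most calls were lost without leukemic 2 or 3. Without the leukemic group 918 of the rises and 1016 of the falls kept their direction, which choosing the calls on the same libraries favours. Rare transcripts, such as Mrc2 and Atf3 in many libraries, lie near the level of 3 counts.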
